A study of Mus musculus with 3 samples.

Results

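Enzymes that chemically modify drugs, toxins and reactive aldehydes were described in RNA sequencing libraries of macrophages from 3 mouse organs. The genes are cytochrome P450s (Cyp), aldehyde dehydrogenases (Aldh), cytosolic and microsomal glutathione S-transferases (Gst and Mgst), UDP-glucuronosyltransferases (Ugt) and sulfotransferases (Sult). They were chosen by gene symbol and by an RPKM of 1 or more in any of the libraries, where RPKM counts reads per kilobase of exon, scaled to a library of 1000000 reads. Of 179 coding genes with such symbols, 65 passed, while 11482 of all 24453 gene symbols, coding or not, passed the same filter. Cyp51, Cyp2e1 and Cyp3a11 were left out by the rule and are given near the end. Since RPKM in these libraries chose the genes, their levels and differences are descriptions, with no test.

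All 3 groups were C57BL/6 mice aged 8 weeks, with no treatment and no engineered allele named in the labels. The groups were macrophages of the heart, Kupffer cells of the liver and macrophages of the kidney, with 1 library for each. Cells were sorted for CD11b and F4/80, 2 surface proteins of macrophages, and against Ly6G and Ly6C, which mark neutrophils and inflammatory monocytes, and their RNA was amplified with a kit for small inputs. The number of animals behind a library is not given in the sources used here, and with no replicates no difference could be set against the variation between animals.

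Foreign compounds are commonly handled in 2 steps. P450s, which are heme enzymes of the endoplasmic reticulum and mitochondria, and aldehyde dehydrogenases, which turn aldehydes into acids, oxidise a compound. Transferases then attach glutathione, glucuronic acid or sulfate, which makes it easier to export. Hepatocytes and the epithelium of the kidney tubule are the best known sites of these reactions, while the same families also act on leukotrienes, sterols, retinoids and the aldehydes of lipid peroxidation, which macrophages make or take up.

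The libraries held 14460618 to 16743415 reads, recovered from the RPKM steps, so that 3 reads on 2000 bp of exon correspond to an RPKM of 0.0896 to 0.104. All 9 macrophage markers examined, among them Adgre1 and Csf1r, had an RPKM of at least 1 in each library, and their summed RPKM was 2170 in heart, 2728 in liver and 2446 in kidney, words used from here on for the 3 libraries. The 5 Kupffer cell markers were all above 1 in the liver library, where Clec4f had an RPKM of 572, and Clec4f was at 0 reads in the other libraries. Of the same list Timd4 had an RPKM of 148 and Vsig4 one of 41.5 in heart, and all 5 were at 0 in kidney. The 4 markers of resident heart macrophages summed to an RPKM of 1255 in heart, 381.6 in liver and 20.4 in kidney, and 1 of them, Folr2, was higher in liver, at 355, than in heart, at 311. Intervals in brackets are exact 95% intervals, Poisson for an RPKM and Clopper-Pearson for a ratio, and cover counting error only. A ratio is of RPKM without a pseudocount, and against 0 reads it is a lower bound set at 3 reads.

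The enzymes most abundant per length of exon differed among the libraries. In the heart library Sult1a1 led with an RPKM of 156, at the 96.1 percentile of the genes compared, in liver Gstp1 with an RPKM of 271, at the 98.3 percentile, and in kidney Cyp4f18 with an RPKM of 107, at the 93.9 percentile. RPKM was at least 1 for 40 of the 65 genes in heart (78.9% of all genes compared), 49 in liver (80.1%) and 56 in kidney (86.4%), and 33 genes reached it in all 3. Another 7 reached it in liver alone, against a background of 6.78% of the genes compared, 11 in kidney alone (8.25%) and 0 in heart alone (3.99%). There were 34 genes at an RPKM of at least 10 in some library, 12 at that level in all 3, and 16 under an RPKM of 3 throughout. For these counts, and for the 33 genes, no share of all genes compared is given, so they describe the 65 genes only. In bulk RNA, fewer cells of a type and less RNA per cell cannot be told apart.

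**Figure D1:**
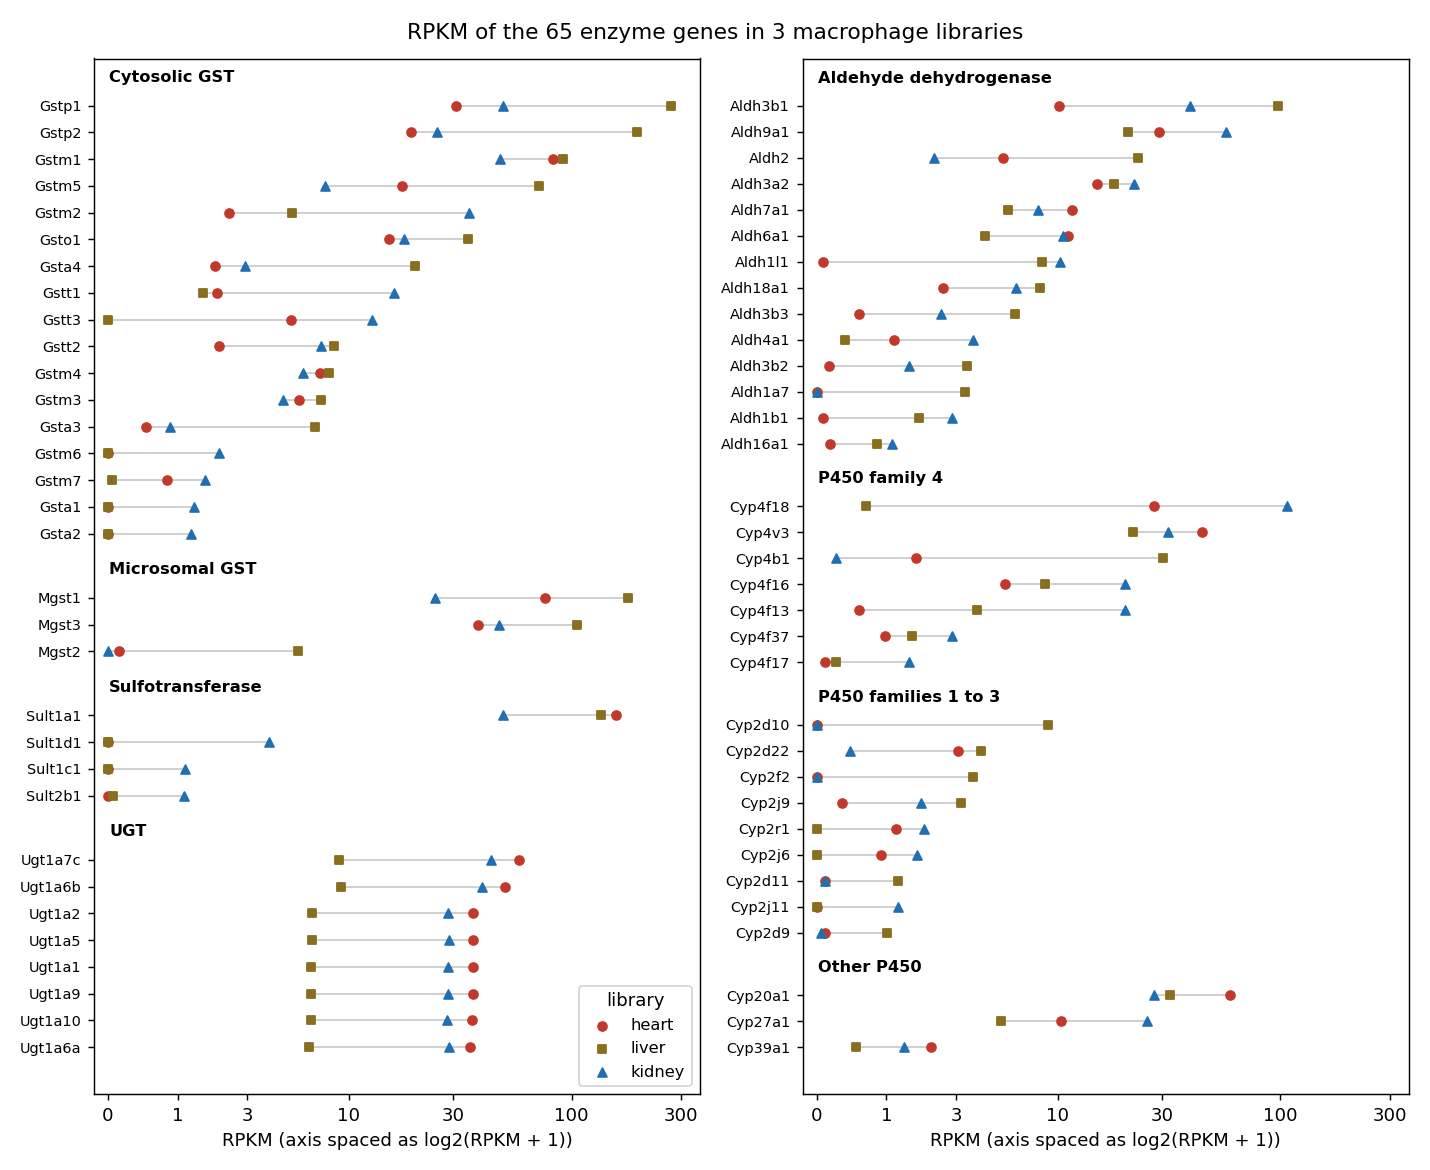
RPKM of the 65 enzyme genes by enzyme class, on an axis spaced as log2(RPKM + 1), with 1 point for each of the heart, liver and kidney libraries and a line over their range. The Gstp genes and Aldh3b1 lie far to the right in liver, Cyp4f18 in kidney, and the 8 Ugt1a genes repeat nearly the same 3 positions.

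Libraries were compared on the scale log2(RPKM + 1). A gene was counted as higher or lower from 2 log2 units on, which is 4-fold there. Against liver, 10 of the 65 genes were higher in heart, where 5.33% of all genes compared were, and 12 were lower (7.13%). Against kidney, 0 were higher in heart (2.4%) and 5 were lower (5.1%). In the kidney library 10 were higher than in liver (7.57%) and 12 were lower (5.1%). With TPM over 1 transcript per gene in place of RPKM, 2 were higher and 14 lower in heart than in kidney. In kidney 25 were then higher and 13 lower than in liver. TPM values ran higher than RPKM, so the same pseudocount of 1 weighs less on them. Of the 10 genes higher in heart than in liver, 8 are Ugt1a genes that share most of their reads, and with that locus counted once 3 remained. Heart minus liver had a median of -0.165 over the 65 genes, beside -0.155 over all genes compared. Heart minus kidney had a median of -0.404 beside -0.229, and kidney minus liver one of 0.468 beside 0.035.

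Set against both other libraries, 9 genes were higher in liver, which is 13.8% of the 65 beside a background of 3.24%. They were Gstp1, Gstp2, Gsta3, Gsta4, Mgst2, Aldh1a7, Cyp4b1, Cyp2d10 and Cyp2f2. Of these, Gsta3, Mgst2, Aldh1a7, Cyp2d10 and Cyp2f2 passed the filter through liver alone, which fixes liver as their highest library. With a pseudocount of 5, 3 genes were higher in liver than in both others. Lower in liver than in both others were 5 genes, beside a background of 2.58%, and these were Cyp4f18, Gstt3 and the Ugt1a genes Ugt1a6a, Ugt1a6b and Ugt1a7c. They were 3 with the Ugt1a locus counted once, 0 without the 17 genes that share sequence, 12 with TPM, and 13 and 1 with pseudocounts of 0.1 and 5. The kidney library held 4 genes above both others (2.14%), namely Cyp4f13, Gstm2, Gstt1 and Sult1d1, and 0 below both (0.705%). Sult1d1 passed the filter through kidney alone. Those above both were 10 with TPM, and 11 and 0 with pseudocounts of 0.1 and 5. The heart library held 0 above both (1.25%) and 1 below both, Aldh1l1 (1.26%), with 4 below both under TPM and 6 and 0 with pseudocounts of 0.1 and 5. By the plain order of the 3 values, 14 genes were highest in heart (23.5% of all genes compared), 26 in liver (39.2%) and 25 in kidney (37.3%). The interval of the highest library lay above that of the next for 56 of the 65, where 74.5% of all genes compared did.

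**Figure D2:**
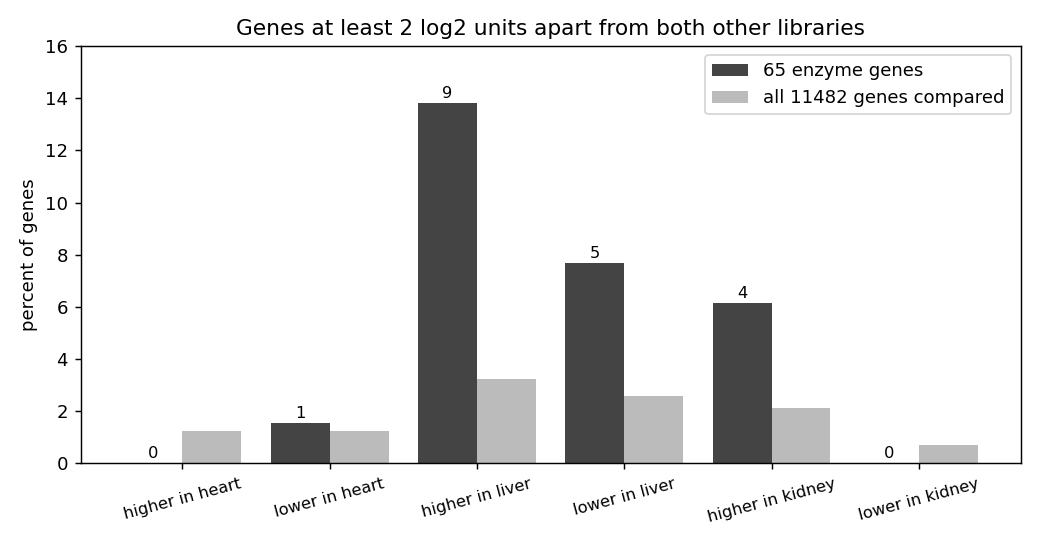
Percent of genes at least 2 log2 units above or below both other libraries, for the 65 enzyme genes (dark bars, with their number on top) and for all 11482 genes compared (light bars). The 9 genes higher in liver make up 13.8% of the enzymes beside 3.24% of all genes compared, and 0 enzymes stand above both other libraries in heart. Among the 9, Gsta3, Mgst2, Aldh1a7, Cyp2d10 and Cyp2f2 passed the filter through liver alone.

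The 17 cytosolic glutathione S-transferases, which couple glutathione to electrophiles, were led by the pi class in liver. Their summed RPKM was 193.8 in heart, 719.6 in liver and 241.9 in kidney. Of the 17, 10 were highest in liver (39.2% of all genes compared), 7 in kidney (37.3%) and 0 in heart (23.5%). Gsta3 passed the filter through liver alone, and Gstm6, Gstm7, Gsta1 and Gsta2 through kidney alone. With TPM or median ratio scaling 8 were highest in liver and 2, Gstm1 and Gstm4, in heart. Gstp1, of the pi class and on the minus strand of chr19:4035411-4037912 (mm10), had an RPKM of 30.9 (27.6 to 34.4) in heart, 271 (262 to 280) in liver and 49.9 (45.9 to 54.1) in kidney. Its liver value was 8.77 times the heart value (7.83 to 9.85) and 5.43 times the kidney value (4.96 to 5.94). Gstp2, which begins close by at chr19:4040288-4042221 on the same strand, had an RPKM of 19.4 in heart, 193 in liver and 25.4 in kidney. Liver thus stood far above the other 2 for both genes, and kidney above heart 1.62-fold for Gstp1 (1.41 to 1.86) and 1.31-fold for Gstp2 (1.10 to 1.58). At most 3 tags were counted per position, which lowers densely covered genes. Gstp1 and Gstp2 had 4.53 and 3.23 reads per bp in liver, so their liver values may be too low.

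The split of reads between the pi class genes is uncertain, since their coding sequences differ at 12 of 630 bases, 98.1% identity. The first 120 coding bases show why a short read may not tell them apart, and are given 5′ to 3′ on the minus strand, joined over introns, with capitals at the bases that differ.
Gstp1: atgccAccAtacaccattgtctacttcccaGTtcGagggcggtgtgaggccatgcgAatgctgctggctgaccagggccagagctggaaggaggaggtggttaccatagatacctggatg
Gstp2: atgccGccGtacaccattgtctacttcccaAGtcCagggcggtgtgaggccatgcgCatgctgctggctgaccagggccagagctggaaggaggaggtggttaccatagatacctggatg
In these bases the differences are A6G, A9G, G31A, T32G, G35C and A57C, with the Gstp1 base first and positions counted from 1 at the start codon. Of all 50-base windows of the transcripts, 62.3% for Gstp1 and 72.6% for Gstp2 also occur in another gene. The sources used here do not say how reads that match both genes were treated.

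The mu class genes, 7 on 149 kb of chr3:107895854-108044856, did not share an order of libraries. Gstm1 had an RPKM of 82.9 in heart, 91.4 in liver and 48.5 in kidney, and its highest library was another one under TPM and under median ratio scaling. Gstm5 had an RPKM of 17.7 in heart, 71.8 in liver and 7.71 in kidney, 9.31 times higher in liver than in kidney (7.64 to 11.5). Gstm5 shares 18.8% of its exon bases with 4933431E20Rik, a noncoding transcript on the opposite strand, whose RPKM was 0.090 in heart, 1.67 in liver and 0.631 in kidney, and both strands were counted. Gstm2 went the other way, with an RPKM of 2.33 in heart, 5.24 in liver and 35.2 in kidney. The kidney value of Gstm2 was 15.1 times the heart value (10.7 to 21.9) and 6.72 times the liver value (5.38 to 8.48). Gstm3 and Gstm4 lay between RPKM 4.69 and 8.06 in all libraries, within 1 log2 unit of each other, and the highest library of Gstm4 also depended on the scaling. Gstm6 was seen in kidney alone, with an RPKM of 2.03 from 36 reads beside 0 reads in the other 2. Gstm7 had 15 reads in heart, 1 in liver and 33 in kidney.

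Of the alpha class genes, Gsta3 passed the filter through liver alone and Gsta1 and Gsta2 through kidney alone, which fixes their highest library. Gsta4, which conjugates the lipid peroxidation product hydroxynonenal, had an RPKM of 1.90 in heart, 20.3 in liver and 2.91 in kidney. The liver value of Gsta4 was 10.7 times the heart value (7.19 to 16.7) and 6.98 times the kidney value (5.06 to 9.83). Gsta3, which detoxifies the aflatoxin epoxide in mice, had an RPKM of 0.459 in heart, 6.83 in liver and 0.855 in kidney. Gsta1 and Gsta2 had 18 and 17 reads in kidney and 0 elsewhere, and since 89.7% and 64.2% of their 50-base windows occur in other genes, which of these genes the reads come from is uncertain.

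The theta class acts on small halogenated compounds among others. Gstt1 had an RPKM of 1.95 in heart, 1.57 in liver and 16.2 in kidney, 10.4 times higher in kidney than in liver (6.96 to 16.04). Its neighbour Gstt3 had an RPKM of 5.19 from 140 reads in heart and 12.9 from 373 reads in kidney, and 0 reads in liver. Against liver Gstt3 was at least 54.0-fold higher in heart and at least 134-fold higher in kidney, and 27.9% of its exon bases belong to Gm20441 as well. The third gene of that stretch of chromosome 10, Gstt2, had an RPKM of 2.03 in heart, 8.501 in liver and 7.31 in kidney, with overlapping intervals in liver and kidney. Gsto1, an omega class enzyme that reduces dehydroascorbate and removes glutathione from proteins, had an RPKM of 15.4 in heart, 34.9 in liver and 18.1 in kidney.

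The 3 microsomal transferases are membrane proteins of a separate family. All 3 were highest in liver (39.2% of all genes compared), and 2 of them reached an RPKM of over 100 there. The third, Mgst2, passed the filter through liver alone. Mgst1, a glutathione transferase and peroxidase of the endoplasmic reticulum and the outer mitochondrial membrane, had an RPKM of 76.5 in heart, 177 in liver and 24.8 in kidney. Its 3 intervals did not overlap, and the liver value was 7.11 times the kidney value (6.37 to 7.95). At 2.96 reads per bp, the liver value of Mgst1 may also be lowered by the limit on tags. Mgst3 had an RPKM of 38.7 in heart, 106 in liver and 48.1 in kidney. Mgst2, a relative of leukotriene C4 synthase, had an RPKM of 5.62 from 56 reads in liver, with 1 read in heart and 0 in kidney. The related leukotriene C4 synthase gene itself, Ltc4s, had an RPKM of 34.7 in heart, 0.915 in liver and 6.80 in kidney, the opposite order of heart and liver.

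Aldehyde dehydrogenases passed the filter with 14 of 21 genes, 2 highest in heart (23.5% of all genes compared), 6 in liver (39.2%) and 6 in kidney (37.3%). Aldh1a7 passed through liver alone and Aldh16a1 through kidney alone. Aldh3b1, which oxidises aldehydes from lipid peroxidation, was the most abundant of them in liver, with an RPKM of 10.1 in heart, 97.6 in liver and 40.1 in kidney. Its liver value was 9.65 times the heart value (8.51 to 10.98) and 2.43 times the kidney value (2.27 to 2.61). Its neighbours Aldh3b3 and Aldh3b2 had the same order, with an RPKM of 0.522, 2.46 and 6.22 for Aldh3b3 and of 0.129, 1.496 and 3.45 for Aldh3b2 in heart, kidney and liver. Of the 50-base windows, 14.5% for Aldh3b3 and 24.2% for Aldh3b2 occur in other Aldh3b genes, so which gene some of their reads come from is uncertain. Aldh2, the mitochondrial enzyme that oxidises acetaldehyde, had an RPKM of 5.39 in heart, 23.4 in liver and 2.22 in kidney. Liver exceeded kidney 10.5-fold for Aldh2 (8.81 to 12.7) and heart exceeded kidney 2.43-fold (1.97 to 2.998).

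Aldh1l1 was the gene lower in heart than in both others. This cytosolic enzyme of folate metabolism had an RPKM of 0.068 from 3 reads in heart, 8.42 from 431 reads in liver and 10.3 from 488 reads in kidney. The ratio of liver to heart was 124, with an interval of 42.2 to 604 that reflects the 3 heart reads. Aldh1b1, a mitochondrial relative of Aldh2, had 2 reads in heart beside an RPKM of 1.77 in liver and 2.83 in kidney. Aldh1a7, a relative of the retinal dehydrogenase Aldh1a1, had an RPKM of 3.36 from 115 reads in liver and 0 reads in the other 2. Aldh1a1 itself stayed below the filter, with 8 reads in liver and 0 elsewhere.

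Other aldehyde dehydrogenases serve amino acid and lipid metabolism. Aldh9a1, which acts in carnitine synthesis, had an RPKM of 29.1 in heart, 21.1 in liver and 58.0 in kidney, 2.75 times higher in kidney than in liver (2.56 to 2.96). Aldh3a2, the fatty aldehyde dehydrogenase, had an RPKM of 15.3 in heart, 18.3 in liver and 22.6 in kidney, all within 1 log2 unit. Aldh7a1 of lysine breakdown had an RPKM of 11.7, 5.72 and 8.05 and Aldh6a1 of valine breakdown 11.2, 4.36 and 10.6 in heart, liver and kidney. These were the 2 aldehyde dehydrogenases highest in heart, and for Aldh6a1 the heart and kidney intervals overlapped. Aldh18a1, of proline synthesis, had an RPKM of 2.53 in heart, 8.23 in liver and 6.29 in kidney. Aldh4a1, of proline breakdown, had an RPKM of 1.16, 0.322 and 3.76 in that order, 11.7 times higher in kidney than in liver (7.19 to 20.1), and 47.2% of its exon bases are also annotated as Gm21969.

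P450 family 4, whose enzymes oxidise the end of fatty acids and leukotrienes, passed the filter with 7 of 20 genes. Of the 7, 5 were highest in kidney (37.3% of all genes compared), and of these Cyp4f17 passed the filter through kidney alone. Cyp4f18, which oxidises leukotriene B4 in mouse myeloid cells, lies at chr8:71988482-72009626 on the minus strand (mm10). It had an RPKM of 27.8 (25.7 to 29.9) in heart, 0.637 (0.378 to 1.01) in liver and 107 (103 to 111) in kidney. The 3 intervals did not overlap, and kidney exceeded liver 168-fold (106 to 285) and heart exceeded liver 43.6-fold (27.3 to 73.9). At 6.05 log2 units, kidney minus liver for Cyp4f18 was the greatest of the differences among the 65 genes. Zfp961 on the opposite strand shares 10.6% of the exon bases of Cyp4f18.

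Cyp4b1 had the reverse order and lies at chr4:115624728-115647705. This enzyme, known from the lung for activating the toxin ipomeanol, had an RPKM of 1.68 (1.22 to 2.24) in heart, 30.6 (28.6 to 32.6) in liver and 0.208 (0.0763 to 0.452) in kidney. Liver exceeded heart 18.2-fold (13.5 to 25.2) and kidney 147-fold (67.3 to 402). Family 4 thus held both the greatest excess of kidney over liver and the greatest excess of liver over kidney on the log2 scale among the 65 genes, at 6.05 and -4.71 for kidney minus liver.

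Of the other family 4 genes, Cyp4f13 had an RPKM of 0.530 in heart, 3.94 in liver and 20.5 in kidney, 38.6 times higher in kidney than in heart (22.4 to 73.0). Cyp4f16 had an RPKM of 5.50 in heart, 8.74 in liver and 20.6 in kidney. Cyp4f37 and Cyp4f17 kept that order of heart, liver and kidney at RPKM values of 2.84 or less, and Cyp4f16 and Cyp4f37 share 24.1% and 20.9% of their 50-base windows with each other. Cyp4v3, a fatty acid hydroxylase related to the human gene of a retinal dystrophy, had an RPKM of 45.1 in heart, 22.4 in liver and 32.1 in kidney, within 1 log2 unit in every pair. The Cyp4a genes, fatty acid hydroxylases of hepatocytes and tubule cells, had 0 reads for all 8 genes in all 3 libraries.

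P450 families 1 to 3, which hold the main drug oxidising enzymes of the liver, passed the filter with 9 of 58 genes, and 32 of the 58 had 0 reads in every library. Cyp2d10 was the highest of the 9, with an RPKM of 8.98 from 246 reads in liver and 0 reads in the other 2, at least 70.8-fold above heart and at least 76.2-fold above kidney. Cyp2f2, which oxidises naphthalene, had an RPKM of 3.73 from 113 reads in liver and 0 in the other 2, with 14.7% of its exon bases shared with Gm15883 on the opposite strand. Cyp2d11 and Cyp2d9 had 33 and 28 reads in liver and at most 2 elsewhere. Of the 50-base windows, 40.5% for Cyp2d10, 37.2% for Cyp2d11 and 29% for Cyp2d9 occur in other genes, so which of them the reads come from is uncertain. Cyp2d22 differed from these, with an RPKM of 3.08 in heart, 4.13 in liver and 0.396 in kidney. Its heart value stood 7.78 times above the kidney value (4.67 to 13.8).

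The Cyp2j enzymes, which make epoxides of arachidonic acid, were low. Cyp2j9 had an RPKM of 0.286 in heart, 3.21 in liver and 1.83 in kidney. Cyp2j6 had 46 reads in heart, 0 in liver and 96 in kidney, and Cyp2r1, a vitamin D hydroxylase, had 28, 0 and 48 reads. Both were thus seen in heart and kidney and not in liver. The upper limits of their liver intervals were an RPKM of 0.0615 for Cyp2j6 and 0.136 for Cyp2r1. Cyp2j11 had 37 reads in kidney and 0 in the other 2. Cyp2c had 0 of 15 genes past the filter, with an RPKM of at most 0.061, and Cyp3a had 0 of the 8 that the rule kept, with at most 0.174. The Cyp1 genes, the standard targets of the aryl hydrocarbon receptor, had 0 of 3.

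Of the P450s that act on sterols and retinoids, and the orphan Cyp20a1, 3 of 18 genes passed. Cyp20a1 had an RPKM of 59.9 (57.2 to 62.6) in heart, 32.8 (31.0 to 34.7) in liver and 27.8 (26.1 to 29.6) in kidney. Cyp27a1, the mitochondrial hydroxylase of the cholesterol side chain, had an RPKM of 10.4 in heart, 5.27 in liver and 25.8 in kidney, 4.90 times higher in kidney than in liver (4.14 to 5.82). Cyp39a1, an oxysterol hydroxylase of bile acid synthesis, had an RPKM of 2.13 in heart, 0.483 in liver and 1.37 in kidney. Their heart minus liver differences were 0.848, 0.864 and 1.075 log2 units, all under 2. Cyp26b1, a retinoic acid hydroxylase below the filter, had 2 reads in heart, 41 in liver and 23 in kidney.

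Glucuronosyltransferases attach glucuronic acid to bilirubin, phenols and many drugs. All 8 members are Ugt1a genes, which begin at separate promoters along chr1:88055411-88220002, each with a first exon of its own, and join the same last exons. Those shared exons are 2309 bp of each transcript, apart from Ugt1a6b, whose deposited model lacks 1004 bases at the 3′ end. A read in them counts for every gene, so the 8 values are not 8 measurements. The coding sequence shows the 2 parts, and is given 5′ to 3′ on the plus strand. The first 90 coding bases are shown for Ugt1a7c, for Ugt1a10, which resembles it, and for Ugt1a1, with capitals where a base differs from Ugt1a7c by position.
Ugt1a7c: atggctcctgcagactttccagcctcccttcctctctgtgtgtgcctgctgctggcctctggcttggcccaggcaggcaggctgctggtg
Ugt1a10: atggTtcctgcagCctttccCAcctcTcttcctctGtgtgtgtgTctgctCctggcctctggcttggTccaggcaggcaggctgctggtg
Ugt1a1: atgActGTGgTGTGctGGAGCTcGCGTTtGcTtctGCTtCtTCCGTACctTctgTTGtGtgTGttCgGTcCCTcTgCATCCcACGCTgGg
Ugt1a shared: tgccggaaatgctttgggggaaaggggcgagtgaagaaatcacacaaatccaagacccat
The last sequence is the final 60 coding bases, the same in all 8 genes. Ugt1a10 differs from Ugt1a7c at 9 of the 90 bases and Ugt1a1 at 57.

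Reads from the first exons can be estimated by what each transcript holds beyond the lowest count of the 7 full models. That lowest count was 1702 reads in heart, 353 in liver and 1422 in kidney. Ugt1a7c held a further 1095 reads in heart, 141 in liver and 847 in kidney. None of the other 6 full models held more than 8 further reads in heart or 2 in liver, and in kidney the next were Ugt1a6a with 48 and Ugt1a5 with 14. For Ugt1a6b, whose shorter model cannot be set against that base, first exon reads were not computed. Ugt1a1, the enzyme of bilirubin in hepatocytes, had 8, 1 and 2 further reads in heart, liver and kidney. Of the 50-base windows in the first coding exon, 1.48% occur in another gene for Ugt1a7c, 47.3% for Ugt1a6b and 100% for Ugt1a6a.

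Over its first exon of 978 bp, Ugt1a7c had an RPKM of 77.4 (72.9 to 82.2) in heart, 8.61 (7.25 to 10.2) in liver and 55.7 (52.0 to 59.6) in kidney. Over the shared exons the RPKM was 51.0 in heart, 9.13 in liver and 39.6 in kidney. In heart and kidney these values were below those of the first exon, although every Ugt1a transcript holds the shared exons. Ugt1a6b, whose model lacks 1004 of the shared bases, had 1685, 350 and 1440 reads in heart, liver and kidney. How evenly reads lay over the shared exons was not tested, so their RPKM may be too low. Heart exceeded liver 8.99-fold in the first exon (7.54 to 10.8) and 5.58-fold in the shared exons (4.98 to 6.28). Kidney exceeded liver 6.47-fold (5.41 to 7.79) and 4.34-fold (3.86 to 4.89), and heart exceeded kidney 1.39-fold (1.27 to 1.52) and 1.29-fold (1.20 to 1.38). Both parts of the transcript gave the order heart, kidney, liver, but not the same size of difference. Against liver, the intervals of the 2 parts did not overlap for heart or for kidney. The deposited RPKM of Ugt1a7c over its whole length was 58.8 in heart, 8.98 in liver and 44.4 in kidney. The other 7 genes, Ugt1a1, Ugt1a2, Ugt1a5, Ugt1a6a, Ugt1a6b, Ugt1a9 and Ugt1a10, had deposited RPKM values of 35.9 to 51.0 in heart, 6.42 to 9.15 in liver and 28.3 to 40.5 in kidney. Apart from Ugt1a6b, for which this was not computed, at most 3.27% of the reads of these genes lay beyond the shared base. The 10 Ugt2 genes, the other main branch of the family, had at most an RPKM of 0.227, and 9 of them had 0 reads.

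**Figure D3:**
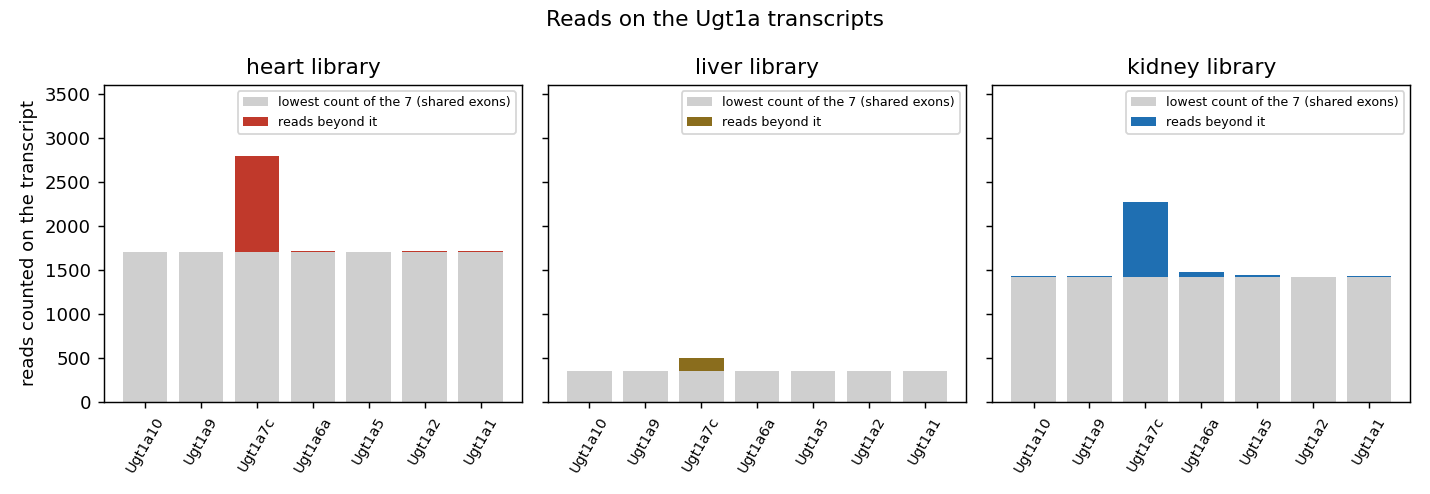
Reads counted on 7 Ugt1a transcripts in each library, in their order along the chromosome, with the lowest count of the 7 in grey and the reads beyond it in colour. Ugt1a7c stands out with 1095, 141 and 847 further reads in heart, liver and kidney, on a shared base of 1702, 353 and 1422.

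Sulfotransferases passed the filter with 4 of 19 genes, 1 of them abundant. Sult1a1, the phenol sulfotransferase, had an RPKM of 156 (151 to 162) in heart, 135 (130 to 139) in liver and 50.1 (47.2 to 53.2) in kidney. Heart and liver lay close together, 1.16-fold apart (1.10 to 1.22), and heart stood 3.11 times above kidney (2.90 to 3.34). Sult1a1 had 2.26 reads per bp in heart and 2.25 in liver, and the limit on tags per position lowers densely covered genes. How close the true levels were is therefore uncertain. Sult1d1, which sulfates dopamine and other amines, had an RPKM of 3.97 from 147 reads in kidney and 0 reads in the other 2, at least 45.6-fold above heart and at least 52.8-fold above liver. Sult1c1 and the cholesterol sulfotransferase Sult2b1 had 27 and 20 reads in kidney, with at most 1 read elsewhere. The Sult2a genes, steroid sulfotransferases of hepatocytes, had 0 of 8 past the filter.

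Genes of other cell types were present beside these enzymes. In the liver library 15 of 22 hepatocyte markers had an RPKM of at least 1, beside 4 in heart and 3 in kidney. Their summed RPKM was 396.7 in heart, 606.9 in liver and 391.2 in kidney, and without Trf, which had an RPKM of 382 to 388 in every library, they summed to an RPKM of 8.58 in heart, 222.7 in liver and 9.36 in kidney, with Alb at 64.3, Apoa2 at 41.2 and Fgb at 29.1 in liver. Tat and Pck1 were at 0 there. Cyp2d10, Cyp2d11, Cyp2d9, Cyp2f2, Aldh1a7, Mgst2 and Gsta3 were above an RPKM of 1 in liver alone, and so were the left-out Cyp2e1 and Cyp3a11. Endothelial markers apart from Lyve1 summed to an RPKM of 13.1, 278.2 and 13.8 in heart, liver and kidney, with 7 of these 12 at an RPKM of at least 1 in liver, led by Clec4g at 129 and Stab2 at 57.5, and Plvap and Esam at 0. Lyve1, which is also on the heart macrophage list, had an RPKM of 336 in heart, 15.1 in liver and 0 in kidney. With Lyve1 the sums were 349.1, 293.3 and 13.8. B and plasma cell markers apart from Cd79b summed to an RPKM of 4.65, 153.4 and 0.607, with 8 of these 9 at an RPKM of at least 1 in liver and Pax5 at 0. Cd79b itself was nearly as high in kidney as in liver, with an RPKM of 32.9 in heart, 170.3 in liver and 167.7 in kidney. With Cd79b the sums were 37.5, 323.7 and 168.3. T and NK cell markers summed to an RPKM of 16.4, 79.0 and 2.88, with 6 of 11 at an RPKM of at least 1 in liver and Ncr1 and Klrb1c at 0. The part of these cells in the liver values was not tested.

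In the kidney library 13 of 16 markers of the distal nephron had an RPKM of at least 1, beside 1 in heart and 2 in liver. Their summed RPKM was 2.03 in heart, 6.10 in liver and 532.8 in kidney, with Umod at 215, Klk1 at 140 and Slc12a1 at 63.4, and Pvalb at 0. Of 16 proximal tubule markers 5 reached an RPKM of 1 in kidney, and without Slc13a3 and Napsa, both present in heart too, they summed to 0.607 in heart, 0.587 in liver and 15.8 in kidney. Miox, Slc22a6, Slc22a8, Slc22a12 and Slc27a2, defining markers of that segment, were at 0 reads in every library, while Ggt1, Lrp2, Kap and Slc34a1 had 286, 108, 39 and 31 reads in kidney and 0 in the other 2. Sult1d1, Gsta1, Gsta2, Gstm6, Sult1c1 and Cyp2j11 were among the 11 enzyme genes at an RPKM of at least 1 in kidney alone. The part of tubule cells in the kidney values was not tested. In the heart library 9 of 12 fibroblast and mural markers had an RPKM of at least 1, and apart from Gsn they summed to an RPKM of 187.5, beside 16.7 in liver and 6.59 in kidney. Gsn itself was highest in kidney, with an RPKM of 30.3 in heart, 6.12 in liver and 100.3 in kidney. With Gsn the sums were 217.8, 22.8 and 106.9. Cardiomyocyte markers, 5 of 12 at an RPKM of at least 1 in heart and 0 of them without reads there, summed to an RPKM of 17.4, 0.041 and 5.21, and their part in the heart values was not tested either.

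Neighbouring genes were then compared, since members of a family often lie in tandem. Grouped by gaps of at most 200 kb, 38 of the 65 genes fell into 9 stretches. The 5 genes Aldh3b1, Aldh3b3, Aldh3b2, Gstp1 and Gstp2, which belong to 2 unrelated families, lie together on chr19:3913491-4042221, and all 5 were highest in liver. Within each family these genes share sequence, so the 5 are not fully separate measurements. Of the 4 other genes compared in that stretch, Acy3 and Nudt8 were highest in liver, and Unc93b1 and Ndufv1 in kidney. Acy3, an aminoacylase that acts on mercapturic acids, the end products of glutathione conjugation, had 0 reads in heart, an RPKM of 13.9 in liver and 1.21 in kidney. Of the 4 Cyp2d genes of chr15, Cyp2d9, Cyp2d10 and Cyp2d11 passed the filter through liver alone, which fixes their highest library, and for Cyp2d22 the liver and heart intervals overlapped. The 3 adjoining Cyp4f genes of chr17 were all highest in kidney, but Cyp4f17 passed the filter through kidney alone, which fixes its highest library. In the Gstm stretch 4 were highest in liver, among them Gstm1 and Gstm4 whose order depends on the scaling, and 3 in kidney. Of those 3, Gstm6 and Gstm7 passed the filter through kidney alone, and Gstm2 did not. In the Gstt stretch 1 was highest in liver and 2 in kidney, so that genes of the same stretch differed there.

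**Figure D4:**
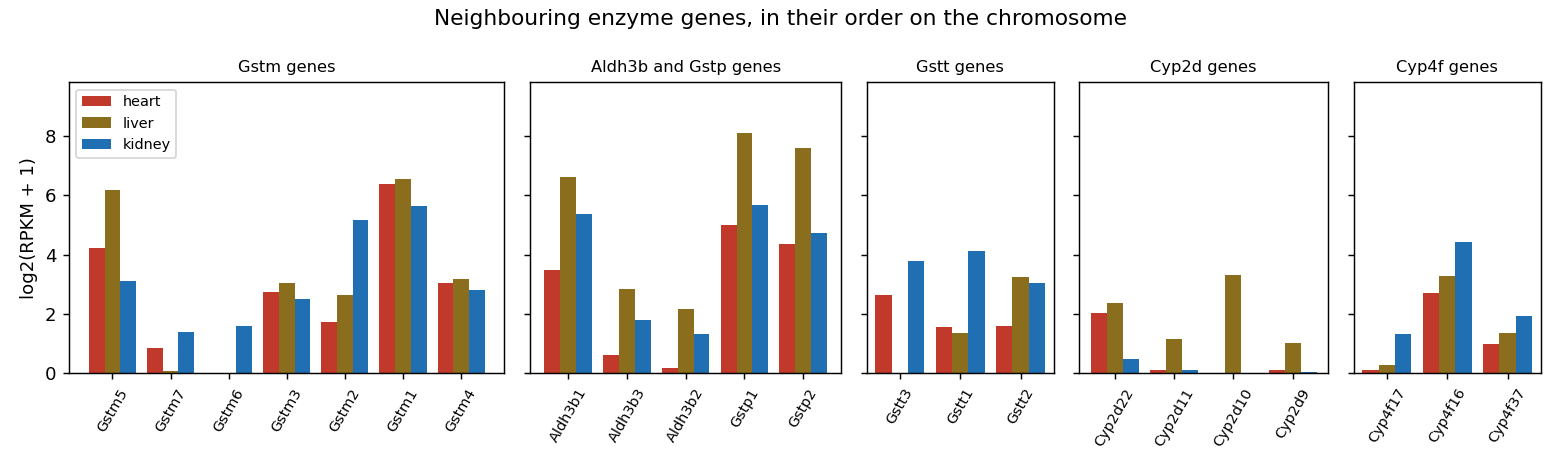
Level of neighbouring enzyme genes on the scale log2(RPKM + 1), in their order on the chromosome, with bars for the heart, liver and kidney libraries. The 5 genes of the Aldh3b and Gstp stretch have their tallest bar in liver, while in the Gstm stretch Gstm5 is tallest in liver and Gstm2 in kidney.

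Promoters of the 2 pi class genes were read from RefSeq on GRCm38.p6, the assembly of mm10. They are shown because the genes had like values and carry the same short element, TGANTCA, the binding motif of AP-1, in capitals. Each is the 250 bases before the start, 5′ to 3′ on the minus strand, at chr19:4037913-4038162 for Gstp1 and chr19:4042222-4042471 for Gstp2.
Gstp1: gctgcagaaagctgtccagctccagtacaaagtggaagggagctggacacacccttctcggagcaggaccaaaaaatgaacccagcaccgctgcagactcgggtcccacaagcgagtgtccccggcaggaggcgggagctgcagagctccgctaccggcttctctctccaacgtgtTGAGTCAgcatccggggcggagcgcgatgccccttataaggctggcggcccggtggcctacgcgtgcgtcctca
Gstp2: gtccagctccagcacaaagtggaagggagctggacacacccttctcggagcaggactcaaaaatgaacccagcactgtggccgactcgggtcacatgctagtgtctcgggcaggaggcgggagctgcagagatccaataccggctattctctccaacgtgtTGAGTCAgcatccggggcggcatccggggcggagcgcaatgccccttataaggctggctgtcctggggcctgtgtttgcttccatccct
A promoter of 250 bases before to 50 after the start was found for 56 of the 65 genes. TGANTCA, which reads the same on both strands, occurred in 10 of the 56, or 17.9%, beside 8.97% of 27025 genes, and it was searched after the pi class promoters had been seen. The core of the antioxidant response element, TGACNNNGC on either strand, occurred in 7 of 56, or 12.5%, beside 14% of genes, and its 7 holders were Aldh9a1, Cyp2j6, Cyp4f18, Gsta3, Gstm5, Gstm7 and Mgst1. The core of the xenobiotic response element, GCGTG on either strand, occurred in 20, or 35.7%, beside 35.2% of genes. The HNF1 site, known from hepatocyte promoters, occurred in 0, beside 0.074% of genes. The first 2 motifs can overlap each other, and a match is a description of the letters only.

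Genes that work with these enzymes were taken from lists of pathway partners. Of 16 genes that sense foreign compounds and oxidative stress, 13 were compared. In heart 4 were higher and 1 lower than in liver (5.33% and 7.13% of all genes compared), and 2 higher and 0 lower than in kidney (2.4% and 5.1%). In kidney 0 were higher and 1 lower than in liver (7.57% and 5.1%). In log2 units their median was 0.730 (heart minus liver), 0.815 (heart minus kidney) and -0.015 (kidney minus liver), where all genes compared had -0.155, -0.229 and 0.035. Ahr, the receptor of dioxins and of plant and microbial indoles, had an RPKM of 15.8 in heart, 0.915 in liver and 1.10 in kidney. Tiparp, a feedback inhibitor of that receptor, had an RPKM of 83.7 in heart, 19.7 in liver and 22.9 in kidney. Bach1, the heme-sensitive repressor of antioxidant genes, had an RPKM of 44.6 in heart, 2.22 in liver and 5.26 in kidney. Nfe2l2, which encodes their activator NRF2, had an RPKM of 281 in heart, 217 in liver and 196 in kidney. Rxra, the partner of many nuclear receptors, had an RPKM of 0.605 in heart, 22.3 in liver and 1.49 in kidney. Nr1i2 and Ppara, receptors that drive P450 genes in hepatocytes, had 0 reads in all 3, while the related receptors Nr1i3 and Nr1h4 had 14 and 66 reads in liver, 18 and 0 in kidney and 0 in heart.

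P450s of the endoplasmic reticulum need electrons from Por, which had an RPKM of 2.76 in heart, 4.02 in liver and 4.79 in kidney. Cyb5a, cytochrome b5, was far higher at an RPKM of 280 in heart, 329 in liver and 260 in kidney. Of 9 such redox partners 8 were compared, and 1 difference in 1 pair of libraries reached 2 log2 units, that of Pgrmc2, with an RPKM of 0.760 in heart and 12.02 in liver. Of all genes compared, 7.13% were lower in heart than in liver. The other 7 partners stayed within 2 log2 units in every pair of libraries, and the medians of the 8, in the order of differences given above, were -0.473, -0.760 and -0.050.

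Glutathione supply was covered by 24 genes, 23 of them compared, with medians of -0.438, 0.025 and 0.042. In heart 3 were higher and 0 lower than in liver (5.33% and 7.13% of all genes compared), and 2 and 2 against kidney (2.4% and 5.1%). In kidney 3 were higher and 2 lower than in liver (7.57% and 5.1%). Gclm and Gclc, the subunits of the enzyme that limits glutathione synthesis, had an RPKM of 5.50, 11.7 and 1.40 and of 5.90, 7.69 and 2.43 in heart, liver and kidney. Gsr, which regenerates glutathione, had an RPKM of 7.11 in heart, 21.6 in liver and 1.62 in kidney. These 3 genes had the order liver, heart, kidney, as Mgst1, Gstm5 and Aldh2 did. That order was not general. Gss of the same list had an RPKM of 2.77 in heart, 4.17 in liver and 7.86 in kidney. Gstp1, Gstp2 and Gsta4 had the order liver, kidney, heart. Srxn1, sulfiredoxin, had an RPKM of 37.2 in heart, 2.06 in liver and 2.70 in kidney. Txnrd1, thioredoxin reductase, had an RPKM of 44.4 in heart, 35.0 in liver and 8.18 in kidney.

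**Figure D5:**
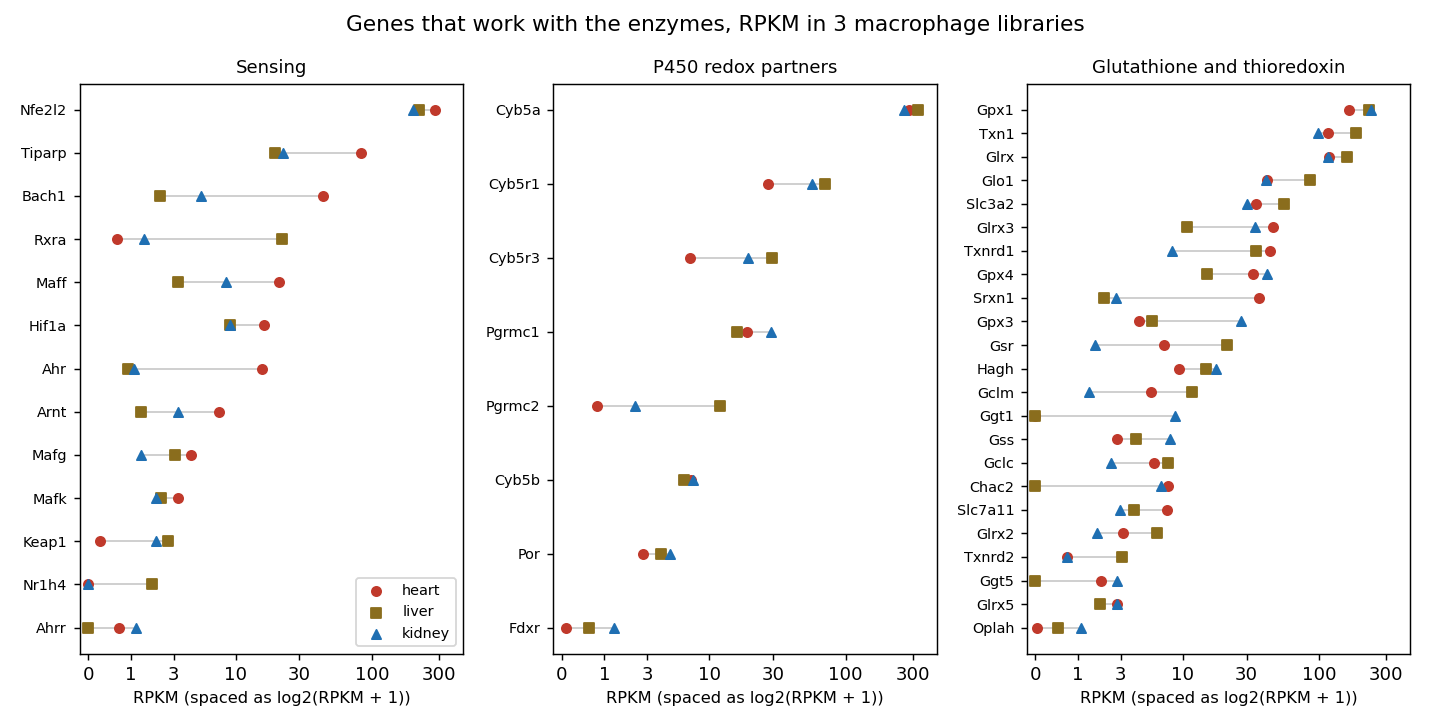
RPKM of the genes compared in 3 partner lists, on axes spaced as log2(RPKM + 1), with 1 point for each library. In the sensing list Ahr, Bach1 and Tiparp lie to the right in heart and Rxra in liver, while the P450 redox partners Por, Cyb5a and Cyb5b have nearly equal points.

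Of 46 other oxidising, reducing and hydrolysing enzymes 30 were compared, with medians of -0.946, 0.010 and -0.838. In heart 3 were higher and 4 lower than in liver (5.33% and 7.13% of all genes compared), and 4 and 2 against kidney (2.4% and 5.1%). In kidney 1 was higher and 6 lower than in liver (7.57% and 5.1%). Cbr2, a carbonyl reductase that is also among the 4 heart macrophage markers, had an RPKM of 186 in heart, 5.49 in liver and 4.96 in kidney. Xdh, xanthine dehydrogenase, had an RPKM of 19.9 in heart, 66.9 in liver and 2.88 in kidney, and Cbr4 had 4.12, 46.0 and 3.71. Adh1, the alcohol dehydrogenase that also oxidises retinol, had an RPKM of 0.157 in heart, 28.1 in liver and 11.2 in kidney. Nqo1, a classic target of NRF2, had an RPKM of 0.717 in heart and 0 reads in liver and kidney.

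Of 24 other conjugating enzymes 20 were compared, with medians of -0.088, 0.264 and -0.734. In heart 2 were higher and 2 lower than in liver (5.33% and 7.13% of all genes compared), and 3 and 0 against kidney (2.4% and 5.1%). In kidney 2 were higher and 3 lower than in liver (7.57% and 5.1%). Hpgds, the sigma class glutathione transferase that makes prostaglandin D2, had an RPKM of 130 in heart, 67.0 in liver and 107 in kidney. Gstz1, the zeta class enzyme of tyrosine breakdown, had an RPKM of 9.68 in heart, 43.9 in liver and 4.60 in kidney. Ugdh, which makes the glucuronic acid donor, had an RPKM of 16.7 in heart, 12.8 in liver and 10.7 in kidney. Papss1, which makes the sulfate donor, had an RPKM of 10.5, 20.6 and 22.0 in that order. Ugdh and Papss1 were within 1 log2 unit in all pairs of libraries, while the widest differences of Ugt1a7c and Sult1a1 were 2.585 and 1.62 log2 units.

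Of 14 transporters that carry conjugates or drugs 7 were compared, with medians of 0.280, 0.016 and 0.267. In heart 2 were higher and 1 lower than in liver (5.33% and 7.13% of all genes compared), and 0 and 0 against kidney (2.4% and 5.1%). In kidney 2 were higher and 0 lower than in liver (7.57% and 5.1%). Slco2b1, an uptake carrier of organic anions, had an RPKM of 99.0 in heart, 4.25 in liver and 156 in kidney. Abcc3, an exporter of glucuronides, had an RPKM of 14.7 in heart, 81.7 in liver and 24.1 in kidney, and so was highest where Ugt1a7c was lowest. Abcb1b, a drug efflux pump, had an RPKM of 14.9 in heart, 0.498 in liver and 7.74 in kidney. Of 12 retinoid partners 5 were compared, with medians of -1.383, 0.505 and -1.995. Beside the same shares of all genes compared, 1 was higher and 2 lower in heart than in liver, and 0 and 0 against kidney. In kidney 1 was higher and 2 lower than in liver. Tgm2, a transglutaminase induced by retinoids, had an RPKM of 4.01, 53.0 and 0.873 in heart, liver and kidney, the highest of them in liver, while Dgat1 exceeded it in heart at 7.41 and in kidney at 4.93.

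Just inside the filter of RPKM 1 were Cyp2d9 at 1.02 in liver and Aldh16a1 at 1.11, Sult2b1 at 1.14 and Sult1c1 at 1.16 in kidney. Just outside were Cyp1a2 at 0.952 and Aldh8a1 at 0.775 in liver, and Cyp2ab1 at 0.838 and the retinal dehydrogenase Aldh1a2 at 0.708 in heart. Of the 114 genes below the filter, 33 had at least 1 read and 81 had 0 reads in all 3 libraries. The left-out Cyp2e1, which oxidises ethanol, had an RPKM of 0.080 in heart, 10.5 in liver and 0.671 in kidney. Cyp3a11, the main drug oxidising P450 of mouse liver, had an RPKM of 4.07 in liver and 0 reads in the other 2. Cyp51, of cholesterol synthesis, had an RPKM of 5.75 in heart, 0.083 in liver and 8.799 in kidney, an order unlike that of the other 2.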

How the data were processed

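Macrophages of the heart, liver and kidney were measured by RNA sequencing, with 1 library each. CASAVA, STAR and the build mm10 are named in the submitters' processing notes, with no version in the sources used here. RPKM is the unit deposited, which the authors made with the HOMER program analyzeRepeats.pl from reads on either strand of the exons, scaled to 1000000 reads with at most 3 tags per position, per the file headers. The column names call them FPKM. Since both strands were counted, genes that overlap on opposite strands cannot be separated, and the limit on tags lowers densely covered genes. The exon length in bp is also deposited.

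For each symbol the longest coding RefSeq transcript was kept, which chose among several for 10 of the 65 genes. Reads were recovered from the RPKM steps, and all 14395, 10952 and 13147 low values checked in heart, liver and kidney lay within 0.1 of a whole read. Genes that reached an RPKM of 1 anywhere were compared on log2(RPKM + 1), a scale that understates the differences of low genes. With 1 library per tissue there was no test, and no p-value or standard error is given. Shared exons and 50-base windows came from GENCODE M21 on GRCm38 and promoters from RefSeq on GRCm38.p6. Python 3.11.15 with pandas 2.3.3, numpy 2.4.6, scipy 1.17.1 and matplotlib 3.10.9 was used, and the read recovery was tested on simulated data.

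The genes, the marker and partner lists and the motifs were chosen with earlier results of these data known. Values are given for up to 4 of the most abundant genes of each enzyme class, for genes apart from both other libraries, for those next to the filter and for up to 4 genes per list, and any other enzyme gene could be named. Alternatives were other pseudocounts, scalings, filters and transcripts, and leaving out genes densely covered or with shared sequence.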

Additional observations from a re-analysis of the deposited data

Results flagged for a closer look

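Apart from the coding genes compared, 6 noncoding transcripts have symbols of the same families. Of these, 3 had more than 3 reads in a library, the bound set here against a count of 0. Cyp4b1-ps2, a pseudogene on chromosome 4, had an RPKM of 8.84 from 83 reads in the liver library, 0.370 from 3 reads in the heart and 0 reads in the kidney library. Cyp4b1 itself had the same order, and 34.2% of the 50-base windows of the pseudogene occur in Cyp4b1. Cyp2d13 had an RPKM of 0.146 from 4 reads in the liver library and 0 reads in the other 2. Cyp4f41-ps had an RPKM of 0.311 from 5 reads in the heart library and 0 reads in the other 2.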

How the results depend on the processing

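Counts of genes at least 2 log2 units apart depended mainly on the pseudocount and on TPM. These 2 are not separate, since TPM values ran higher than RPKM and a pseudocount of 1 weighs less on them. Gstt3, with 0 reads in liver, went from 2.629 to 4.315 log2 units for heart minus liver under TPM. For kidney minus liver it went from 3.792 to 5.519. Aldh1a7, with 0 reads in heart, went from -2.124 to -3.558 for heart minus liver. How far this accounts for the TPM counts was not tested. With a pseudocount of 0.1, 2 genes were higher and 17 lower in heart than in kidney, 21 lower in heart than in liver, and 26 higher in kidney than in liver. Against both others, 6 were then lower in heart, 11 higher and 2 lower in kidney, and 13 lower in liver. With a pseudocount of 5, 2 were higher and 4 lower in heart than in liver, 2 lower in heart than in kidney, and 1 higher and 5 lower in kidney than in liver. Against both others, 0 were then lower in heart, 0 higher in kidney, and 3 higher and 1 lower in liver. With TPM, 2 were higher and 14 lower in heart than in kidney, 25 higher in kidney than in liver, and against both others 4 lower in heart, 10 higher and 2 lower in kidney and 12 lower in liver. TPM moved the median of all genes from -0.155 to -0.017 (heart minus liver) and from 0.035 to 0.151 (kidney minus liver), and median ratio scaling moved it from -0.229 to -0.005 for heart minus kidney. Median ratio scaling, the transcript with the highest mean RPKM and leaving out the 4 genes of over 2 reads per bp (Gstp1, Gstp2, Mgst1 and Sult1a1) moved no count or median by more than 1.5 times or 0.25.

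Medians over the genes are weak. With RPKM of at least 3, which left 49 genes, the median of heart minus kidney was 0.000 and that of kidney minus liver -0.231, the reverse of 0.468, and with no filter, over 98 genes, both were 0.000. After the data were seen, the Ugt1a locus was counted once, with 3 genes higher in heart than in liver and 3 lower in liver than in both others. Also added then, leaving out the 17 genes with shared sequence gave 0 higher in heart than in liver, 5 higher in kidney than in liver, 0 lower in liver than in both others, and medians of -0.489 (heart minus liver) and 0.010 (kidney minus liver). Of 49 single differences of at least 2 log2 units, 0 reversed under the 5 alternatives run on them, 35 fell under 2 with a pseudocount of 5 and 1 with median ratio scaling, Ugt1a6a for kidney minus liver. Leaving out a library was not possible. No paired analysis was possible because there is 1 library per tissue.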
